A study of Mus musculus with 45 samples.

Results

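Organoids are small epithelial structures grown from intestinal stem cells in a gel, and they need an R-spondin protein in the medium. The transcriptome of wild-type (WT) mouse small intestine organoids was compared here between 100 and 5 ng/ml of the R-spondin Rspo1. All libraries of the WT cultures grown with Rspo1 were taken, which gave 6 of the 45 libraries of the series. They came from 3 cultures, named WT10, WT5 and WT30, each started from the small intestine of 1 embryo at E17.5 of the Lgr5-DTReGFP line and read at passage 4, and each culture was split between the doses. The genotype was labelled Lgr5 wild-type, so no allele of the knock-in was named for these cultures, while the KO cultures of the same line lacked Lgr5 through a cassette of the diphtheria toxin receptor and eGFP at its locus. Every culture was grown in Matrigel in medium with EGF and the BMP antagonist noggin, and mouse Rspo1 was the only factor that the labels changed between the doses. The study compared R-spondins by type and concentration in WT and KO organoids. Libraries of WT cultures with Rspo2 or Rspo3 and of KO cultures with Rspo1 were used only where a difference from the Rspo1 dose in WT was tested. The libraries of sorted stem cells were not used.

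R-spondins bind the receptors Lgr4, Lgr5 and Lgr6 and the membrane E3 ligases Rnf43 and Znrf3. The ligases remove Frizzled receptors from the cell surface, and when an R-spondin has drawn them off, more Frizzled stays available and a Wnt signal is passed on more strongly through beta-catenin and the TCF/LEF transcription factors. In the crypt of the small intestine this signal maintains stem cells and their dividing daughters and favours Paneth cells, whereas enterocytes mature where it is weak.

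Expression was given as CPM, the count of a gene scaled to a fixed total of reads, and 3 values given for a dose are those of WT10, WT5 and WT30 in that order. A difference is the value at 100 minus that at 5 ng/ml on the log2(CPM + 1) scale, within cultures, with its standard error, and a gene was said to rise or fall only at an adjusted p under 0.05 (limma, Benjamini-Hochberg over 17114 genes). The log2 scale with 1 added understates the change of genes near or below 1 CPM. Each of the 3 cultures came from 1 embryo, and differences in level between embryos are taken out by comparing within cultures. The error is that of limma, which shares variance among genes of similar level. It is thus not only a gene's own spread of differences over the 3 embryos. In bulk RNA, fewer cells of a type and less RNA per cell cannot be told apart.

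The libraries held 18461534 to 30777585 reads on genes, as estimated from the steps of the deposited values. Epithelial genes such as Epcam, at 571, 623 and 691 CPM at 100 ng/ml and 757, 751 and 750.0 CPM at 5 ng/ml, were present throughout. The summed level of 12 epithelial genes was 5528 to 6727 CPM at 100 ng/ml and 6853 to 8143 CPM at 5 ng/ml, that of 12 fibroblast and muscle genes 6.65 to 15.8 and 8.85 to 9.85 CPM, and that of 10 blood and vessel genes 21.0 to 24.6 and 23.1 to 36.4 CPM. Among the markers of those other cells, Ptprc stood at no more than 0.1 CPM and Col1a1 at no more than 0.3 CPM in any of the libraries. Others were higher, with Csf1r at 16.7 to 33.6 CPM, Vim at 3.5 to 12.4 CPM, Cd68 at 1.3 to 4.15 CPM and Pdgfrb at 1.05 to 2.55 CPM. In each of these 2 lists 3 genes could be tested, of which none was called in the first, and Cd68 and Pecam1 rose and Csf1r fell in the second. Between 27906 and 28293 genes had a value above 0 at 100 ng/ml, against 26808 to 27208 at 5 ng/ml, and the 100 highest genes took 14.6 to 15.5% and 15.8 to 18.1% of each library. The part of these values in the results was not tested. All 6 libraries were high in Xist, at 3926, 2468 and 2353 CPM at 100 ng/ml and 1788, 1336 and 1282 CPM at 5 ng/ml.

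The dose changed most of the transcriptome, and the cultures moved together. At 100 ng/ml, genes of stem cells, Wnt targets, DNA replication, Paneth cells and the basement membrane were higher, while genes of enterocytes, drug metabolism, the respiratory chain and sterol synthesis were lower. Of the 17114 genes tested, 8846 rose (51.7%) and 3150 fell (18.4%), which together made 11996 (70.1%). At 4-fold or more the counts were 210 and 105, and at 8-fold or more 28 and 11. Of the genes called, 98.7% moved the same way in all 3 cultures. A test within cultures already favours such genes, so this share is no separate check. Across genes the differences of any 2 cultures correlated with r between 0.908 and 0.915, where genes are not independent replicates. The correlation of libraries was 0.979 to 0.992 within a dose and 0.925 to 0.951 between doses.

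The balance of rises and falls depended on the scaling. The median difference over all genes tested was 0.28, and when the libraries were rescaled by a trimmed mean of M values (TMM) it became -0.02. With that scaling 5152 genes rose (30.1%) and 5732 fell (33.5%), so that the rises made 47.3% of the calls in place of 73.7%. The median fell by 0.30 with this scaling, so that small positive differences turned negative, and each list is to be read beside the median of 0.28. Counts of list members are read against the shares of 51.7% and 18.4% for rises and falls, or 30.1% and 33.5% with TMM. Among the genes named that passed, 4930539E08Rik, Atoh1, Axin1, Bcl9l, Bop1, Galnt12, Hmox1, Hopx, Insm1, Lgr4, Lrp5, Pax6, Pecam1, Tle1 and Wnt2b did not pass with TMM. Calls were lost for Chga, Epcam, Fzd8, Ghrl, Hes1, Lgr4, Pax6, Pecam1 and Sprr1a without WT10, for Bop1, Chga, Epcam, Ghrl, Hes1, Hspa5, Lgr4 and Lrp6 without WT5 and for Axin1, Bop1, Pax6 and Pecam1 without WT30. Among the genes named that did not pass, Agr2, Apc, Cdkn1a, Ctnnb1, Ddit4, Dll1, Dpp4, Fos, Hnf4a, Mgam, Nid1, Spink4, Sqle, Tcf7l2, Tert and Tff3 passed as falls with TMM. Passing calls also came for Fev and Nid1 without WT10, for Dclk1, Fev, Lct and Nid1 without WT5 and for Cdkn1a without WT30.

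**Figure D1:**
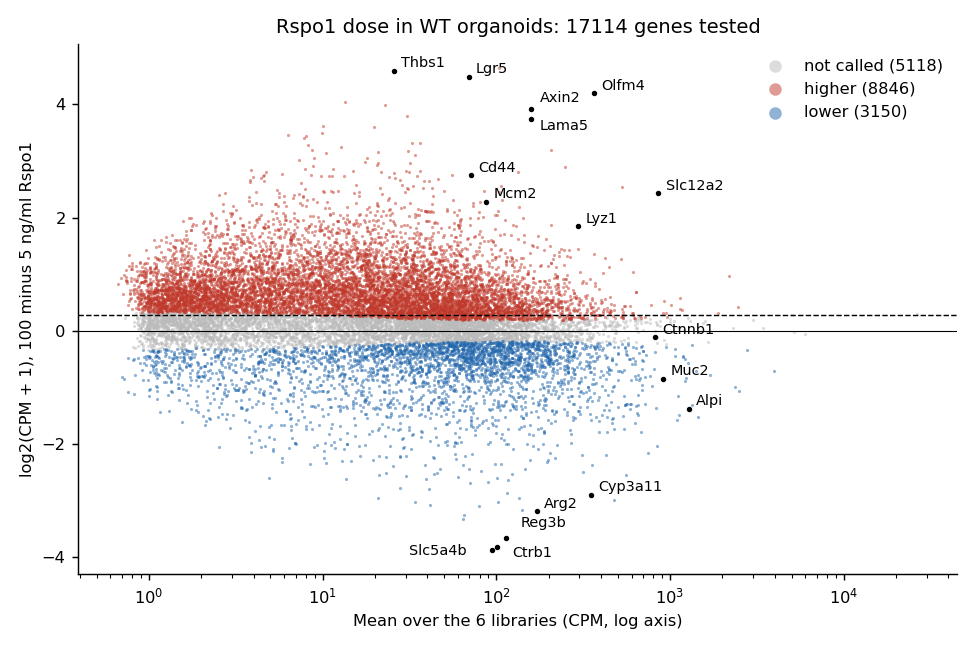
Each point is 1 of 17114 genes, with its mean over the 6 libraries (CPM, log axis) on the x axis and its difference between the doses on the y axis; red genes rose, blue genes fell and grey genes were not called. The dashed line marks the median of all genes, 0.28, and Lgr5, Olfm4 and Axin2 lie at 4.49, 4.20 and 3.91 while Slc5a4b, Ctrb1 and Reg3b lie at -3.88, -3.84 and -3.67.

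Among the receptors, the stem cell receptor Lgr5 changed most. Lgr5 (chr10:115450311-115587780, GRCm38, minus strand) was at 116, 192 and 94.2 CPM at 100 ng/ml and 5.4, 5.65 and 3.45 CPM at 5 ng/ml (log2 difference 4.49 ± 0.12, adjusted p = 9.6e-13). The lowest value at the high dose was far above the highest at the low dose. Its relative Lgr4, which binds the same ligands across the epithelium, was at 286, 295 and 288 CPM at 100 ng/ml and 224, 261 and 269.7 CPM at 5 ng/ml. The groups did not overlap, but the difference was small (log2 difference 0.21 ± 0.09, adjusted p = 0.042), and it was -0.14 with TMM. Lgr6 was at or below 0.1 CPM in every library.

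Both E3 ligases that R-spondins bind, which themselves limit Wnt signalling, rose. Rnf43 was at 173, 226 and 139 CPM at 100 ng/ml and 34.2, 38.6 and 31.7 CPM at 5 ng/ml (log2 difference 2.31 ± 0.09, adjusted p = 4.3e-11), and Znrf3 at 67.7, 86.7 and 77.3 CPM at 100 ng/ml and 21.3, 30.9 and 26.7 CPM at 5 ng/ml (log2 difference 1.53 ± 0.09, adjusted p = 1.1e-09). The groups did not overlap for either ligase. The Frizzled receptors, which bind Wnt proteins, moved in both directions. Fzd2, at 13.1, 19.5 and 19 CPM at 100 ng/ml and 3.7, 4.35 and 4.2 CPM at 5 ng/ml, rose by 1.82, and Fzd7, a Frizzled of stem cells, was at 74.6, 87.7 and 103 CPM at 100 ng/ml and 28.7, 34.7 and 39.7 CPM at 5 ng/ml and rose by 1.34. Fzd1, Fzd3, Fzd6 and Fzd9 rose as well, by 1.03, 0.81, 1.02 and 1.38. Fzd5, the Frizzled through which Paneth cells mature, fell, with 329.6, 486 and 457 CPM at 100 ng/ml and 629, 897 and 787 CPM at 5 ng/ml (log2 difference -0.87 ± 0.09, adjusted p = 6.0e-07). Fzd4 and Fzd8 fell too, with differences of -0.73 and -0.37. The co-receptors parted in the same way, since Lrp5 rose (difference 0.50) and Lrp6 fell (difference -0.29). In all, 11 of 15 tested receptors and ligases rose and 4 fell (51.7% and 18.4% over all genes), with a median difference of 1.02. With TMM the counts were 9 and 4.

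Few Wnt ligands were expressed by the organoids themselves. Only 4 of 23 Wnt and R-spondin genes were high enough to test, and the 4 R-spondin genes were at 0.55 CPM or less in every library. Wnt3, the main Wnt of Paneth cells, was at 9.9, 8.25 and 8.35 CPM at 100 ng/ml and 3, 2.55 and 2.45 CPM at 5 ng/ml (log2 difference 1.42 ± 0.13, adjusted p = 1.1e-07). Every culture had more at the high dose, and the groups did not overlap. Wnt2b was at 11.9, 9.8 and 7 CPM at 100 ng/ml and 6.55, 6.1 and 5.8 CPM at 5 ng/ml and rose by 0.54. Wnt4 fell, from 6.25, 6.1 and 3.85 CPM at 5 ng/ml to 3.8, 2.65 and 1.15 CPM at 100 ng/ml (difference -0.91). Wnt9b, with a difference of 0.16, did not pass the test. Wnt proteins leave the cell with the help of Porcn, which adds their lipid, and of Wls, which carries them to the surface. Wls was at 63.3, 46.5 and 60.2 CPM at 100 ng/ml and 17.9, 15 and 16.3 CPM at 5 ng/ml (log2 difference 1.72 ± 0.09, adjusted p = 8.3e-10), with no overlap, and Porcn rose by 0.76.

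The shared parts of the cascade inside the cell moved little. Beta-catenin, Ctnnb1, was at 768, 745 and 845 CPM at 100 ng/ml and 809.8, 844 and 906 CPM at 5 ng/ml (log2 difference -0.12 ± 0.09, adjusted p = 0.27), and its groups overlapped, although with TMM it fell (difference -0.47). Apc, a scaffold of the complex that degrades beta-catenin, had a difference of -0.02, and the transcription factor Tcf7l2 one of 0.03; neither passed the test. Axin1, a further scaffold, differed by 0.26 and passed, but its difference was -0.09 with TMM. The co-activators Bcl9 and Bcl9l rose by 0.74 and 0.53. Over the 16 tested genes of the cascade, Wls and Porcn included, 11 rose and 1 fell with a median of 0.29, close to the 0.28 of all genes, and with TMM 3 rose and 5 fell with a median of -0.06.

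Feedback genes, antagonists and corepressors of the pathway, only some of which Wnt signalling induces, did not move as 1 group. Axin2, the usual readout of Wnt activity, was at 239, 429.7 and 226 CPM at 100 ng/ml and 14.8, 25.1 and 15.7 CPM at 5 ng/ml (log2 difference 3.91 ± 0.09, adjusted p = 1.7e-13). Its groups were far apart, with the highest value of the high dose in WT5. Nkd1, an inhibitor that binds Dishevelled, was nearly undetected at the low dose, with 1.2, 3.55 and 1 CPM at 100 ng/ml and 0, 0 and 0.05 CPM at 5 ng/ml (log2 difference 1.42 ± 0.20, adjusted p = 1.4e-05). Apcdd1, a membrane inhibitor of Wnt, rose by 1.05. Sfrp5, a secreted antagonist that binds Wnt proteins, went the other way, with 2.5, 5.4 and 1.25 CPM at 100 ng/ml and 6.9, 12.9 and 5.6 CPM at 5 ng/ml (log2 difference -1.28 ± 0.14, adjusted p = 7.8e-07). The secreted antagonists of the Dkk family and Notum were at 1.45 CPM or less and were not tested. The corepressor Tle4 fell (difference -0.57) and its relative Tle1 rose (difference 0.43). Of 10 tested of 20 members, 6 rose and 2 fell, with a median of 0.42. With TMM 4 rose and 3 fell, with a median of 0.15.

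Known Wnt targets of the crypt rose in 18 of 19 tested cases, against 51.7% of all genes, and their median difference was 1.75. With TMM 17 rose. The promoters of Sp5 and Tnfrsf19 are shown because each holds the letters CTTTGAT, a TCF/LEF motif, within 250 bases before a RefSeq start of the gene. For Tnfrsf19 this is the inner one of 2 RefSeq starts, 8503 bases inside the outermost start of the gene in GENCODE. The motif, on either strand, stands in capitals in the lines that follow, each of which reads 5′ to 3′ along its gene (RefSeq, GRCm38.p6; chr2:70474783-70474862, plus strand for Sp5 and chr14:61038146-61038225, minus strand for Tnfrsf19):
Sp5: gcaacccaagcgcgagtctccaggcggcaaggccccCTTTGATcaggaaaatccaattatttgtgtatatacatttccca
Tnfrsf19: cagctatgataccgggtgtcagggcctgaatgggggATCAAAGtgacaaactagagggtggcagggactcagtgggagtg

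The motif was found for 3.14% of the 10538 tested genes that had a promoter window, which ran from 250 bases before to 50 after a start, and a gene can have several. It was found in 4 of the 12 target genes that had a window, but only 12 of the 19 tested targets had one, so this count is void as a check of the list. Tnfrsf19, a receptor known as a Wnt target, was at 13.6, 15.4 and 8.55 CPM at 100 ng/ml and 0.35, 0.15 and 0.1 CPM at 5 ng/ml (log2 difference 3.46 ± 0.15, adjusted p = 1.0e-10). At the low dose it was close to undetected in all cultures. Sp5, a transcription factor induced by Wnt, was at 6.7, 18.1 and 3.75 CPM at 100 ng/ml and 3.05, 2.05 and 1.4 CPM at 5 ng/ml (log2 difference 1.52 ± 0.24, adjusted p = 5.2e-05), and its rise differed between cultures. WT5 was far above the other cultures at 100 ng/ml but not at 5 ng/ml.

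Other genes on the target list rose as well. Cd44, a hyaluronan receptor of crypt cells, was at 132, 127 and 116 CPM at 100 ng/ml and 19.4, 16.7 and 17.3 CPM at 5 ng/ml (log2 difference 2.75 ± 0.09, adjusted p = 6.1e-12). Ephb3, which holds crypt cells in place by contact with ephrins, was at 92.3, 112 and 87.4 CPM at 100 ng/ml and 14.8, 11.6 and 14.4 CPM at 5 ng/ml (log2 difference 2.75 ± 0.12, adjusted p = 7.7e-11), and its relative Ephb2 at 168, 234 and 181 CPM at 100 ng/ml and 73.2, 98.1 and 83.2 CPM at 5 ng/ml (difference 1.18). None of these groups overlapped. The growth regulator Myc was at 136, 188 and 166 CPM at 100 ng/ml and 58.4, 65.1 and 61.6 CPM at 5 ng/ml (log2 difference 1.38 ± 0.09, adjusted p = 2.7e-09) and Ccnd1, cyclin D1, at 91.8, 125 and 77.3 CPM at 100 ng/ml and 21, 37.9 and 18.4 CPM at 5 ng/ml (log2 difference 1.93 ± 0.09, adjusted p = 2.5e-10). Sox9, a transcription factor of stem and Paneth cells, was at 125, 202 and 151 CPM at 100 ng/ml and 31.3, 38.4 and 41.6 CPM at 5 ng/ml (log2 difference 2.05 ± 0.10, adjusted p = 2.4e-10). Tcf7, a TCF of the pathway, rose by 1.72 from a low level, and Edn1, an endothelin, by 2.25. The exception was Cdx1, a homeobox factor of the intestine, at 71.5, 163 and 57.6 CPM at 100 ng/ml and 139.9, 223 and 97.8 CPM at 5 ng/ml (log2 difference -0.72 ± 0.10, adjusted p = 8.2e-06). Its groups overlapped across cultures, yet each culture had less at the high dose. Lef1 was at 0.55 CPM or less and was not tested.

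Markers of crypt base columnar stem cells made the list with the largest median difference, 2.43. Of 19 tested, 18 rose and 1 fell, and the counts were the same with TMM. The list shares Sox9, Tnfrsf19, Ascl2 and Slc12a2 with the Wnt targets. Olfm4, a secreted glycoprotein of stem cells, was at 694, 833 and 559 CPM at 100 ng/ml and 51.2, 37.9 and 25.1 CPM at 5 ng/ml (log2 difference 4.20 ± 0.11, adjusted p = 1.3e-12). Ascl2, a transcription factor that stem cells depend on, was at 12.5, 23.5 and 9.4 CPM at 100 ng/ml and 0.35, 0.5 and 0.4 CPM at 5 ng/ml (log2 difference 3.41 ± 0.18, adjusted p = 4.7e-10). Slc12a2, a chloride cotransporter of crypts, was at 1309, 1486 and 1540.2 CPM at 100 ng/ml and 253, 269 and 282 CPM at 5 ng/ml (log2 difference 2.43 ± 0.09, adjusted p = 2.5e-11). For all 3 every value at 100 ng/ml was above every value at 5 ng/ml. Msi1, an RNA-binding protein, rose by 2.96, Cdca7, a cell cycle gene, by 2.68 and Igfbp4, a binding protein of insulin-like growth factors, by 2.74. Smoc2, a matricellular protein, rose by less, with 328, 399 and 373 CPM at 100 ng/ml and 143, 166 and 129.9 CPM at 5 ng/ml (log2 difference 1.32 ± 0.09, adjusted p = 5.2e-09). Nrn1, a neuritin, was the only member that fell, and its groups overlapped, with 14.8, 60.9 and 59.9 CPM at 100 ng/ml and 23.9, 66.8 and 97.9 CPM at 5 ng/ml (log2 difference -0.50 ± 0.11, adjusted p = 8.0e-04).

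**Figure D2:**
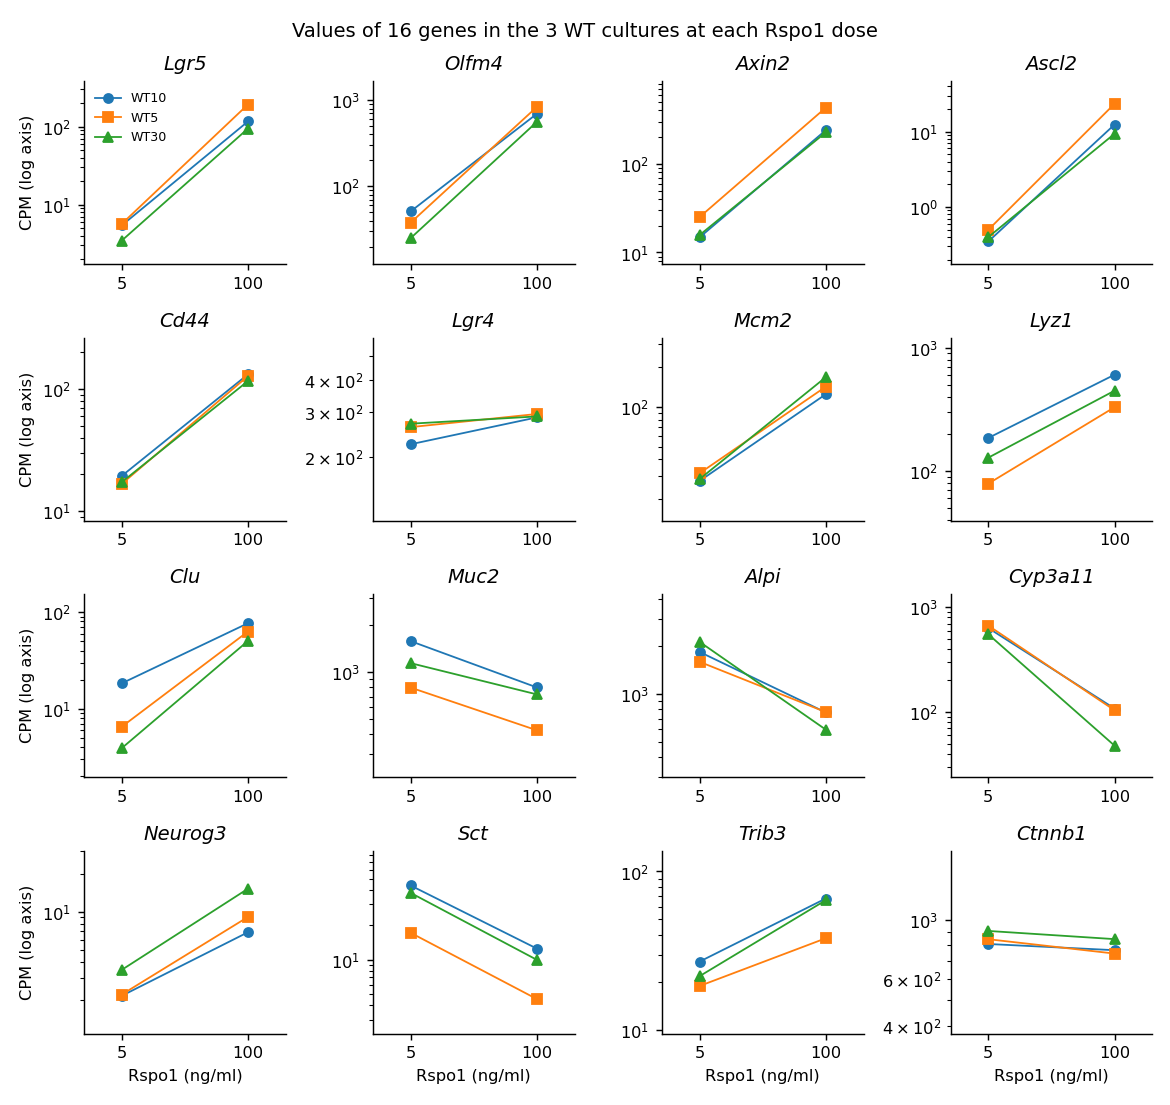
Each panel shows 1 gene (CPM on a log axis, with its own range) at 5 and 100 ng/ml of Rspo1, and each line joins the 2 libraries of 1 culture (WT10, WT5 or WT30). The lines rise steeply for Lgr5, Olfm4, Axin2 and Ascl2, run nearly level for Lgr4 and Ctnnb1 and fall for Muc2, Alpi, Cyp3a11 and Sct.

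Genes used as markers of reserve stem cells rose too, where Bmi1, a Polycomb protein, was at 49.5, 48.7 and 61.3 CPM at 100 ng/ml and 20.6, 28.4 and 25.9 CPM at 5 ng/ml (difference 1.06) and Lrig1, a brake on growth factor receptors, rose by 1.13. Hopx, a homeodomain protein, was at 122, 108 and 85.9 CPM at 100 ng/ml and 94.1, 58.6 and 58.5 CPM at 5 ng/ml and rose by 0.59, with overlap of the groups. Tert and Krt15 did not pass the test. Markers of the fetal and the regenerating epithelium rose in 13 of 14 tested cases, with a median of 1.51. Clu, clusterin, which marks revival stem cells, was at 76.8, 63.0 and 50.3 CPM at 100 ng/ml and 18.3, 6.5 and 3.9 CPM at 5 ng/ml (log2 difference 2.83 ± 0.18, adjusted p = 3.8e-09). Relative to their level, the cultures differed more at the low dose than at the high dose. Anxa3, an annexin, was at 45.2, 23.6 and 26.7 CPM at 100 ng/ml and 4.75, 2.2 and 2.4 CPM at 5 ng/ml (log2 difference 2.99 ± 0.11, adjusted p = 2.9e-11), and Cyr61, a target of the Yap pathway, at 12.8, 18.7 and 10.9 CPM at 100 ng/ml and 3.1, 1.75 and 1.3 CPM at 5 ng/ml (log2 difference 2.32 ± 0.17, adjusted p = 1.5e-08). Ly6a, the surface protein Sca-1, stayed low, with 2.7, 2.6 and 2 CPM at 100 ng/ml and 0.1, 0 and 0.15 CPM at 5 ng/ml (difference 1.66). The exception was Sprr1a, which fell with 1.7, 1.45 and 0.7 CPM at 100 ng/ml and 5.3, 1 and 2.9 CPM at 5 ng/ml (log2 difference -0.71 ± 0.23, adjusted p = 0.012). Its fall was not shared by WT5.

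Paneth cell products rose with the dose. Lyz1, lysozyme, was at 604, 329 and 448 CPM at 100 ng/ml and 185, 79.0 and 128 CPM at 5 ng/ml (log2 difference 1.85 ± 0.09, adjusted p = 2.1e-10). WT10 was the highest and WT5 the lowest at both doses. Itln1, a lectin that Paneth cells secrete, was at 573, 325 and 418 CPM at 100 ng/ml and 79.7, 50.6 and 44.9 CPM at 5 ng/ml (log2 difference 2.89 ± 0.10, adjusted p = 9.7e-12). Ang4, an antimicrobial ribonuclease, rose by 2.21, and Mmp7, the protease that activates alpha-defensins, was at 5, 3.1 and 1.9 CPM at 100 ng/ml and 0.1, 0.05 and 0 CPM at 5 ng/ml (difference 1.98). Every one of the 10 alpha-defensin genes that could be tested rose, out of 22 in the table. Their median was 1.59, and the counts did not change with TMM. Defa24 was at 307, 144 and 251 CPM at 100 ng/ml and 132, 38 and 92.6 CPM at 5 ng/ml (log2 difference 1.51 ± 0.11, adjusted p = 1.1e-08) and Defa30 at 89.9, 67.9 and 56.8 CPM at 100 ng/ml and 15.4, 6.75 and 10.7 CPM at 5 ng/ml (log2 difference 2.64 ± 0.13, adjusted p = 3.1e-10). Alpha-defensins are near-identical copies, so the split of reads among them is uncertain. Of the other 13 tested Paneth genes 10 rose and 3 fell. The 3 that fell, Reg3b, Reg3g and Guca2b, are a pair of antimicrobial lectins and a guanylin peptide that other epithelial cells make as well. The 10 that rose are not all particular to Paneth cells either. Sox9 and Mmp7 are also on the Wnt target list, Sox9 on the stem cell list, Wnt3 on the Wnt ligand list and Dll4 on the Notch list. Reg3b was at 23.9, 15.9 and 7.95 CPM at 100 ng/ml and 306, 212 and 117 CPM at 5 ng/ml (log2 difference -3.67 ± 0.08, adjusted p = 1.9e-13).

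Goblet cell genes moved in both directions. The mucin Muc2 was at 801, 425 and 722 CPM at 100 ng/ml and 1586, 799 and 1146 CPM at 5 ng/ml (log2 difference -0.85 ± 0.10, adjusted p = 2.5e-06), and although the groups overlapped, it was lower at 100 ng/ml in each culture. Zg16, a lectin of the mucus, was at 67.4, 24.5 and 41.2 CPM at 100 ng/ml and 354, 135 and 249.9 CPM at 5 ng/ml (log2 difference -2.45 ± 0.08, adjusted p = 8.9e-12), and Fcgbp, a mucus protein, fell too (difference -0.71), as did the sulfotransferase Gal3st2 (difference -2.26). Spdef, a transcription factor of goblet and Paneth cells, was at 44.4, 29.5 and 40.8 CPM at 100 ng/ml and 29.3, 17.2 and 21.8 CPM at 5 ng/ml (log2 difference 0.73 ± 0.10, adjusted p = 7.3e-06), and Atoh1, which commits cells to the secretory fate, rose by 0.46 and Galnt12, a glycosyltransferase, by 0.56. The secreted proteins Tff3 and Spink4 and the secretory pathway protein Agr2, differing by -0.17, -0.11 and -0.03, did not pass the test. In all 6 of 14 rose and 5 fell, and with TMM 3 rose and 8 fell.

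Enteroendocrine genes moved in both directions as well. Neurog3, which starts the enteroendocrine fate, was at 6.85, 9.05 and 15.2 CPM at 100 ng/ml and 2.15, 2.2 and 3.45 CPM at 5 ng/ml (log2 difference 1.61 ± 0.14, adjusted p = 7.8e-08), with no overlap. The 6 that rose were transcription factors, Neurog3, Pax4, Nkx2-2, Neurod1, Insm1 and Pax6. The 8 that fell were the hormones secretin (Sct), Gip, somatostatin (Sst), Gcg, Nts, Cck and Ghrl, and the granule protein Chga. A further 7 of the 21 did not pass the test, Isl1 and Fev among them. Sct was at 12.5, 4.55 and 9.95 CPM at 100 ng/ml and 43.8, 17.1 and 37.8 CPM at 5 ng/ml (log2 difference -1.75 ± 0.10, adjusted p = 1.7e-09), lower in each culture by a similar factor. Chga was at 36.8, 42 and 130.4 CPM at 100 ng/ml and 54.9, 74.5 and 108 CPM at 5 ng/ml (log2 difference -0.37 ± 0.14, adjusted p = 0.033), and here WT30 ran against the others. With TMM 4 rose and 10 fell. Tuft cell genes were mostly too low to test, since 5 of 14 passed. Pou2f3, the tuft cell transcription factor, was at 1.7, 2.15 and 3.95 CPM at 100 ng/ml and 0.1, 0.65 and 0.65 CPM at 5 ng/ml (difference 1.27), and the channel Trpm5 rose by 0.80, while the kinase Dclk1 did not pass (difference 0.24).

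**Figure D3:**
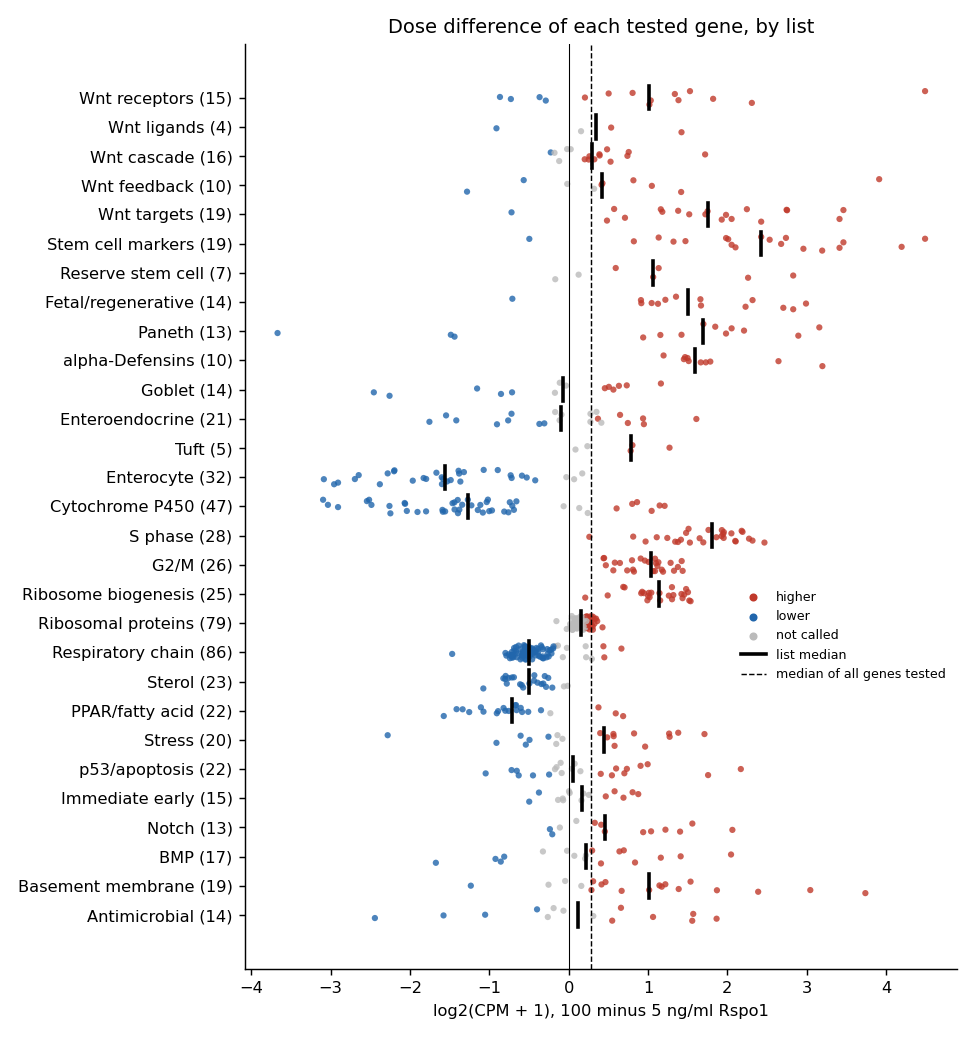
Each point is 1 tested gene, placed by its difference between the doses (x axis) within its list (y axis, with the number tested), red where it rose, blue where it fell and grey where it was not called. Thick bars mark list medians and the dashed line the 0.28 of all genes; the stem cell list lies farthest to the right and the enterocyte list farthest to the left.

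Enterocyte genes fell. Of 32 brush border enzymes, transporters and lipid carriers 29 fell and none rose, against 18.4% and 51.7% of all genes, with a median of -1.56, and with TMM 31 fell. Alpi, intestinal alkaline phosphatase, was at 766, 770.3 and 597 CPM at 100 ng/ml and 1847, 1600.3 and 2139 CPM at 5 ng/ml (log2 difference -1.39 ± 0.13, adjusted p = 2.5e-07). Slc15a1, the peptide transporter, had a larger change, with 9.8, 12.1 and 3.6 CPM at 100 ng/ml and 67.9, 96.2 and 58.1 CPM at 5 ng/ml (log2 difference -3.08 ± 0.15, adjusted p = 2.1e-10), and Krt20, a keratin of mature villus cells, was at 17.1, 31.2 and 8.85 CPM at 100 ng/ml and 97.3, 185 and 83.8 CPM at 5 ng/ml (log2 difference -2.69 ± 0.11, adjusted p = 7.7e-11). For all 3 the groups were well apart. Anpep, an aminopeptidase, fell (difference -1.80), as did Fabp1, a fatty acid binding protein (difference -1.83), and Apoa4, an apolipoprotein (difference -1.49). The disaccharidase Sis fell by less, from 1238, 1831 and 1656 CPM to 690.5, 812 and 1044 CPM (difference -0.89). Lct, lactase, was at 29.9, 35.1 and 70.5 CPM at 100 ng/ml and 21.6, 64.3 and 36.8 CPM at 5 ng/ml (log2 difference 0.17 ± 0.21, adjusted p = 0.48), with no common direction among cultures, and Mgam and Dpp4 did not pass the test either.

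Cytochrome P450 genes, which oxidise drugs, steroids and fatty acids, were taken whole by symbol. Of 47 tested of 120 in the table, 38 fell and 6 rose, with a median of -1.27. Cyp3a11, the main drug-metabolising P450 of the mouse gut and also on the enterocyte list, was at 108, 104 and 47.7 CPM at 100 ng/ml and 632, 667 and 551 CPM at 5 ng/ml (log2 difference -2.91 ± 0.14, adjusted p = 1.8e-10). Cyp2b10 was at 15.8, 41.2 and 12.1 CPM at 100 ng/ml and 129, 279 and 138 CPM at 5 ng/ml (log2 difference -3.03 ± 0.11, adjusted p = 1.9e-11). The largest rise was that of Cyp39a1, an oxysterol hydroxylase, at 3.75, 6.05 and 8.55 CPM at 100 ng/ml and 1.65, 1.75 and 2.55 CPM at 5 ng/ml (difference 1.21). Many of these genes lie in clusters of close paralogs, whose reads can be split between copies. The promoters of Alpi and Cyp3a11 are shown for the letters CAAAGTCCA, a motif of the nuclear receptors Hnf4a and Hnf4g, in capitals (RefSeq, GRCm38.p6; chr1:87101607-87101686, minus strand and chr5:145879920-145879999, minus strand):
Alpi: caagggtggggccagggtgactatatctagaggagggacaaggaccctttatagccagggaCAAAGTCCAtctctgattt
Cyp3a11: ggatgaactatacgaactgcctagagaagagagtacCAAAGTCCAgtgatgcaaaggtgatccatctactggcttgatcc

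These letters, on either strand, were found for 0.626% of the 10538 genes with a window, for 3 of 28 enterocyte genes (10.7%) and for 6 of 40 P450 genes (15%), where close paralogs have near-identical promoters. Their first 5 letters are also those that end the reversed TCF/LEF motif. In Cyp3a11 the letters shown begin 109 bases before its RefSeq start, which lies 110 bases inside the outermost start of the gene in GENCODE. They thus lie inside the gene as GENCODE draws it. A match is only a description of the letters. Of the factors themselves, Hnf4g was at 178, 197 and 201 CPM at 100 ng/ml and 337, 412 and 494 CPM at 5 ng/ml (log2 difference -1.09 ± 0.09, adjusted p = 5.3e-08), with no overlap, while Hnf4a, with 568, 887 and 952 CPM at 100 ng/ml and 610.0, 1024 and 982 CPM at 5 ng/ml, did not pass the test (difference -0.12).

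Genes of DNA replication rose in all 28 cases, with a median of 1.81, and genes of G2 and mitosis in all 26, with a median of 1.04. With TMM 27 and 21 rose. Mcm2, a subunit of the replicative helicase, was at 125, 142 and 168 CPM at 100 ng/ml and 27.5, 31.4 and 28.4 CPM at 5 ng/ml (log2 difference 2.27 ± 0.09, adjusted p = 5.6e-11). Dtl, which marks replication proteins for removal, was at 85.8, 80.1 and 89.4 CPM at 100 ng/ml and 13.7, 17.7 and 12.7 CPM at 5 ng/ml (log2 difference 2.47 ± 0.11, adjusted p = 1.1e-10), and Ung, a uracil glycosylase, rose by 2.32. None of these groups overlapped. Pcna, the replication clamp, rose by less, with 131, 108 and 152 CPM at 100 ng/ml and 80.6, 62.9 and 76.9 CPM at 5 ng/ml (difference 0.81). Mki67, the proliferation antigen Ki-67, was at 444, 718 and 665 CPM at 100 ng/ml and 208, 339 and 292 CPM at 5 ng/ml (log2 difference 1.12 ± 0.08, adjusted p = 2.2e-08) and Top2a, topoisomerase II, at 272, 351 and 406 CPM at 100 ng/ml and 97.5, 147 and 134 CPM at 5 ng/ml (log2 difference 1.44 ± 0.09, adjusted p = 2.2e-09). Cdk1, the mitotic kinase, rose by 0.91 and Ccnb1, cyclin B1, by 0.65. The promoter of Dtl is shown because it holds the letters TTCCCGC, a motif of the E2F factors that drive S phase, in capitals (RefSeq, GRCm38.p6, chr1:191575610-191575689, minus strand):
Dtl: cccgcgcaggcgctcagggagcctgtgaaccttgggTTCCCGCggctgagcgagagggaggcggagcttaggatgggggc

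These letters, on either strand, were found for 9.46% of the 10538 genes with a window and for 11 of 24 replication genes (45.8%), but for none of 22 genes of G2 and mitosis.

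Genes that build ribosomes, many of them known as Myc targets, rose in all 25 cases with a median of 1.14. Ncl, nucleolin, was at 398, 592 and 672 CPM at 100 ng/ml and 191, 312 and 316 CPM at 5 ng/ml (log2 difference 1.02 ± 0.09, adjusted p = 6.2e-08), and Nop56, a core protein of small nucleolar particles, at 189, 154 and 186 CPM at 100 ng/ml and 66.5, 68.2 and 60.4 CPM at 5 ng/ml (log2 difference 1.42 ± 0.09, adjusted p = 4.2e-09). With TMM 23 of them rose, and Bop1, with a difference of 0.21, was at -0.14. The ribosomal proteins themselves did not share this rise. Of 79 tested, 24 rose, fewer than the 51.7% of all genes, with a median of 0.16, and with TMM none rose and 14 fell. Whether they differ from other genes of like level and length was not tested. The nuclear genes of the respiratory chain went down, with 76 of 86 lower and 3 higher and a median of -0.49. Uqcrc1, a subunit of complex III, was at 362, 340.1 and 386 CPM at 100 ng/ml and 549.5, 456 and 494 CPM at 5 ng/ml (log2 difference -0.46 ± 0.09, adjusted p = 2.8e-04) and Cox5a, of complex IV, fell too (difference -0.59).

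Sterol synthesis and uptake fell in 21 of 23 cases and rose in none, with a median of -0.49. Hmgcs1, an early enzyme of the pathway, was at 269.5, 304 and 319.8 CPM at 100 ng/ml and 418, 596 and 551 CPM at 5 ng/ml (log2 difference -0.79 ± 0.09, adjusted p = 1.8e-06), and Insig1, a sterol sensor, at 299, 312 and 279 CPM at 100 ng/ml and 598, 625 and 654 CPM at 5 ng/ml (log2 difference -1.07 ± 0.09, adjusted p = 5.6e-08). Sqle, squalene epoxidase, did not pass the test (difference -0.01). Genes of fatty acid oxidation and other targets of the PPAR receptors fell in 18 of 22 cases. Ehhadh, a peroxisomal enzyme, was at 40.3, 59.7 and 52.3 CPM at 100 ng/ml and 118, 176 and 166 CPM at 5 ng/ml (log2 difference -1.57 ± 0.08, adjusted p = 3.8e-10), and Cpt1a, which admits fatty acids to mitochondria, fell as well (difference -0.66).

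Stress genes moved in both directions. Chac1, which degrades glutathione, was at 38.8, 29.2 and 39.8 CPM at 100 ng/ml and 13.2, 9.5 and 8.35 CPM at 5 ng/ml (log2 difference 1.71 ± 0.12, adjusted p = 1.4e-08), and Trib3, a pseudokinase, at 67.6, 38.0 and 65.9 CPM at 100 ng/ml and 27.1, 19 and 21.9 CPM at 5 ng/ml (log2 difference 1.27 ± 0.11, adjusted p = 7.3e-08). Ddit3, the factor CHOP, rose by 0.96 and Atf3, a stress factor, by 0.82, while Ddit4, an inhibitor of mTOR signalling, did not pass the test (difference -0.14). The groups did not overlap for Chac1, Trib3 and Ddit3 but did for Atf3, where WT10 was the highest at both doses. Nqo1, a quinone reductase, was at 63.1, 53.8 and 42.9 CPM at 100 ng/ml and 286, 219 and 278 CPM at 5 ng/ml (log2 difference -2.28 ± 0.11, adjusted p = 1.9e-10) and Gclm and Txnrd1 fell, while Hmox1, heme oxygenase, rose. The chaperone Hspa5, of the endoplasmic reticulum, fell slightly (difference -0.25). Over the 20 genes 11 rose and 6 fell, and with TMM 7 rose and 9 fell. The promoters of Atf3 and Chac1 are shown for the letters TGATGNAA, the composite element of CHOP and ATF4, which stand in capitals in the reversed form. The Atf3 window lies before its RefSeq start, 34706 bases inside the outermost start of the gene in GENCODE (RefSeq, GRCm38.p6; chr1:191183400-191183479, minus strand and chr2:119351013-119351092, plus strand):
Atf3: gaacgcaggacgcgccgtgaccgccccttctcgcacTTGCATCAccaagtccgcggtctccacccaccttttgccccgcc
Chac1: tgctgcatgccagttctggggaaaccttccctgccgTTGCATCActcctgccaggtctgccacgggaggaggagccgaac

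The element, on either strand, was found for 2.72% of the 10538 genes with a window and for 5 of 19 stress genes (26.3%). Targets of p53 and genes of cell death showed no common direction, with 9 of 22 higher, 6 lower and a median of 0.06 (-0.28 with TMM). Cdkn1a, the p53 target p21, was at 94.6, 79.7 and 89.4 CPM at 100 ng/ml and 103, 106 and 85 CPM at 5 ng/ml (log2 difference -0.15 ± 0.09, adjusted p = 0.16). The survival gene Bcl2 was at 42.1, 54.9 and 43.4 CPM at 100 ng/ml and 8.5, 10.7 and 9.55 CPM at 5 ng/ml (log2 difference 2.17 ± 0.10, adjusted p = 1.4e-10), with no overlap between doses. Immediate early genes were mixed as well, with 5 of 15 higher and 2 lower, or 4 and 8 with TMM. Egr1, a growth factor response gene, rose by 0.81 and Jun by 0.69, while Fos did not pass the test (difference -0.07).

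Basement membrane genes rose in 15 of 19 tested cases, out of 29 on the list, with a median of 1.01. With TMM 11 rose and 2 fell, with a median of 0.77. Lama5, a laminin chain of the epithelium, was at 376, 255 and 249.9 CPM at 100 ng/ml and 32.0, 14.3 and 19.2 CPM at 5 ng/ml (log2 difference 3.74 ± 0.10, adjusted p = 1.1e-12), and Lamb2, its partner chain, at 29.5, 27.0 and 42.5 CPM at 100 ng/ml and 3.45, 2.7 and 3 CPM at 5 ng/ml (log2 difference 3.04 ± 0.13, adjusted p = 1.0e-10). For both genes every value at 100 ng/ml was far above every value at 5 ng/ml. The collagens Col4a1 and Col4a2 rose by 1.39 and 1.22 from low levels, with overlap. Fras1, an extracellular matrix protein, fell in every culture, although WT30 held more than the others, with 26.7, 33.5 and 130.2 CPM at 100 ng/ml and 76, 93.0 and 224 CPM at 5 ng/ml (log2 difference -1.23 ± 0.12, adjusted p = 2.1e-07). Nid1 did not pass the test (difference -0.25). Organoids lie in a gel of basement membrane proteins, so these values are of what the cells transcribed themselves.

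Other signals of the crypt changed in part. In the Notch pathway the ligand Jag2 was at 45.5, 49.2 and 71.9 CPM at 100 ng/ml and 10.9, 10.7 and 15.7 CPM at 5 ng/ml (log2 difference 2.06 ± 0.09, adjusted p = 1.5e-10) and Dll4, a ligand of secretory cells, rose by 0.94, while Dll1 did not pass (difference -0.11). The Notch target Hes1 differed by -0.24, and its groups overlapped. In all 9 of 13 rose and 2 fell, and with TMM 6 rose and 4 fell. For BMP signalling, which noggin in the medium blocks at both doses, the ligand Bmp7 was at 23.6, 29.0 and 34.6 CPM at 100 ng/ml and 4.95, 5.95 and 8 CPM at 5 ng/ml (log2 difference 2.05 ± 0.11, adjusted p = 5.2e-10) and Bmp3 at 54.2, 87.9 and 78.1 CPM at 100 ng/ml and 172, 319 and 227 CPM at 5 ng/ml (log2 difference -1.67 ± 0.09, adjusted p = 3.8e-10). The target Id3 was at 14.6, 11.4 and 17.3 CPM at 100 ng/ml and 5.7, 4.15 and 4.45 CPM at 5 ng/ml (difference 1.41). The BMP list as a whole had 8 of 17 higher and 4 lower, or 6 and 7 with TMM. Among epithelial defence genes Pigr, the receptor that carries IgA to the lumen, was at 444, 985 and 323 CPM at 100 ng/ml and 1285, 2139 and 1366 CPM at 5 ng/ml (log2 difference -1.58 ± 0.14, adjusted p = 1.2e-07), whereas the adhesion protein Icam1 was at 10.7, 5.55 and 2.35 CPM at 100 ng/ml and 1.15, 0.65 and 0.5 CPM at 5 ng/ml (log2 difference 1.86 ± 0.19, adjusted p = 5.6e-07).

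Extremes were ranked among called genes with a mean of at least 5 CPM that moved the same way in all 3 cultures. Predicted genes, with symbols of the Gm or Rik type, were left out. The 10 largest rises by this rule were those of Sorbs2, Thbs1, Lgr5, Olfm4, Ptpn14, Emp2, Axin2, Atg9b, Lama5 and Pcdh8. Sorbs2, a cytoskeletal adaptor, was at 214, 222 and 161 CPM at 100 ng/ml and 7.7, 6.5 and 6.65 CPM at 5 ng/ml (log2 difference 4.64 ± 0.10, adjusted p = 1.7e-13). Thbs1, the matrix protein thrombospondin, was at 61.3, 52 and 37 CPM at 100 ng/ml and 2, 0.9 and 0.55 CPM at 5 ng/ml (log2 difference 4.60 ± 0.12, adjusted p = 1.1e-12). Both were above the values of the other dose by more than an order of magnitude in each culture. Ptpn14, a phosphatase, rose by 4.04, Emp2, a membrane protein, by 3.99, Atg9b, an autophagy gene, by 3.80 and Pcdh8, a protocadherin, by 3.62. The 10 largest falls by the same rule were those of Slc5a4b, Ctrb1, Reg3b, Dpep1, Afp, Arg2, Ces1f, Cyp3a25, Slc15a1 and AC154585.1. Slc5a4b, of the family of sodium and glucose cotransporters, was at 12.7, 18.1 and 5.3 CPM at 100 ng/ml and 176, 214 and 137 CPM at 5 ng/ml (log2 difference -3.88 ± 0.14, adjusted p = 1.6e-11). Ctrb1, a chymotrypsinogen, was at 5.15, 14.3 and 19.8 CPM at 100 ng/ml and 104, 251 and 215 CPM at 5 ng/ml (log2 difference -3.84 ± 0.12, adjusted p = 6.0e-12) and Afp, alpha-fetoprotein, at 11.2, 4.7 and 23.9 CPM at 100 ng/ml and 105, 96.9 and 147 CPM at 5 ng/ml (log2 difference -3.27 ± 0.19, adjusted p = 1.2e-09). Arg2, a mitochondrial arginase, had a difference of -3.20, Dpep1, a dipeptidase, one of -3.33, Ces1f, a carboxylesterase, one of -3.17 and Cyp3a25 one of -3.09. AC154585.1, an antisense gene, lies within Arg2 on the opposite strand, and whether its fall is separate from that of Arg2 was not tested.

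The same 3 cultures were also grown with Rspo2 and Rspo3 at 100 and 5 ng/ml, so that the effect of the Rspo1 dose could be set against that of its relatives in a fit of the 18 WT libraries. The labels give the same concentrations, and the study reported pilot assays meant to add comparable amounts of bioactive protein. Equal concentrations of the 3 proteins still need not be equal in activity. In the study's counts of replated organoids, the lowest tested dose at which all survived was 5 ng/ml for Rspo2. For Rspo1 and Rspo3 it was 100 ng/ml, so survival was incomplete at 5 ng/ml of Rspo1. What part survival has in the differences was not tested. Wnt targets and stem cell markers had medians in a narrow range under each ligand, at 1.75, 2.07 and 1.66 for the targets and 2.43, 2.11 and 2.37 for the stem cell markers with Rspo1, Rspo2 and Rspo3, where the Rspo1 median comes from the 6 libraries.

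Against Rspo2, the dose effect of Rspo1 was higher for 2246 of 18256 genes (12.3%) and lower for 812 (4.45%), called on the difference itself (limma). With TMM the counts were 1262 and 1235, so that the split depended on the scaling. The 3058 calls in all became 622, 1470 and 1438 without WT10, WT5 and WT30. Each of these fits also has fewer pairs, so the drop does not show that the calls rest on 1 culture. For replication genes the medians were 1.81 with Rspo1 and 0.79 with Rspo2, and the difference was called above 0 for 24 of 28 genes. For G2 and mitosis they were 1.04 and 0.06, with 22 of 26 above 0. With Rspo2, Mki67 was at 513 ± 67.6 CPM at 100 ng/ml and 510.1 ± 65.7 CPM at 5 ng/ml (mean ± SD, n = 3), so that the low dose already held what the high dose held. The difference of the dose effects was 1.11 ± 0.21, adjusted p = 0.0023. Enterocyte genes had a median of -1.56 with Rspo1 and -0.77 with Rspo2, and 11 of 32 differences were called below 0. For ribosome biogenesis the medians were 1.14 and 0.38, with 21 of 25 differences above 0, and for P450 genes -1.27 and -0.48, with 23 of 52 below 0 and 4 above. Sterol genes had 10 of 23 below 0, and stress genes 7 above and 2 below 0 of 20.

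Single genes showed the contrast with Rspo2 more sharply. Stc2, stanniocalcin, a secreted protein of the stress response, rose with the Rspo1 dose (70.7, 48.4 and 60.8 CPM at 100 ng/ml and 6.4, 4.4 and 4.55 CPM at 5 ng/ml, difference 3.31), and with Rspo2 was at 53.4 ± 3.60 CPM at 100 ng/ml and 50.7 ± 4.56 CPM at 5 ng/ml, a contrast of 3.24 ± 0.16, adjusted p = 9.0e-09. Fam129a, a stress gene, had a dose difference of 1.95 with Rspo1 and -2.14 with Rspo2, a contrast of 4.09 ± 0.34, adjusted p = 2.6e-06. The directions were opposite. Cldn8, a claudin of tight junctions, was at 2.47 and -0.84, a contrast of 3.31 ± 0.36, adjusted p = 3.4e-05. Chac1 was at 1.71 and -0.87 (2.59 ± 0.25, adjusted p = 1.1e-05) and Trib3 at 1.27 and -1.09 (2.36 ± 0.21, adjusted p = 4.3e-06). Reg3b and Slc5a4b, among the largest falls with Rspo1, were low at both doses of Rspo2, with contrasts of -4.07 ± 0.36, adjusted p = 4.6e-06 and -3.94 ± 0.28, adjusted p = 4.7e-07. Sp5 rose more with Rspo2, where it was at 51.9 ± 13.4 CPM at 100 ng/ml and 1.02 ± 0.535 CPM at 5 ng/ml, and its contrast was -3.19 ± 0.48, adjusted p = 5.7e-04 (adjusted p = 0.051 without WT10).

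Against Rspo3, the dose effect of Rspo1 was higher for 437 genes (2.39%) and lower for 490 (2.68%). The 927 calls became 34, 638 and 185 without WT10, WT5 and WT30, again with fewer pairs in each fit. The proliferation lists turned the other way here, with medians of 2.64 for replication and 2.35 for G2 and mitosis with Rspo3, and differences called below 0 for 16 of 28 and 26 of 26 genes. Mki67 was at 556 ± 12.4 CPM at 100 ng/ml and 88.2 ± 30.5 CPM at 5 ng/ml with Rspo3 and its contrast was -1.58 ± 0.21, adjusted p = 4.1e-04. The histone genes Hist1h3b and Hist1h1b, made in S phase, had contrasts of -1.93 ± 0.28, adjusted p = 9.8e-04 and -1.89 ± 0.31, adjusted p = 0.0026. Olfm4 was at 3.7 ± 2.76 CPM at the low dose of Rspo3, and its contrast was -2.07 ± 0.55, adjusted p = 0.039. Fetal markers differed in their median, at 1.51 with Rspo1 and 0.63 with Rspo3, and 5 of 17 differences were called above 0. Of the immediate early genes 7 of 16 were called above 0. For Clu the contrast was 2.20 ± 0.37, adjusted p = 0.0029. Cldn4, a claudin, and Grhl3, a transcription factor of barrier epithelia, had contrasts of 2.47 ± 0.52, adjusted p = 0.013 and 2.21 ± 0.47, adjusted p = 0.012, and the transcript 4930539E08Rik one of 2.36 ± 0.48, adjusted p = 0.01. Without WT10 the contrasts of Olfm4, Hist1h3b, Hist1h1b, Cldn4, Grhl3 and 4930539E08Rik did not pass the test, with adjusted p from 0.053 to 0.46.

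**Figure D4:**
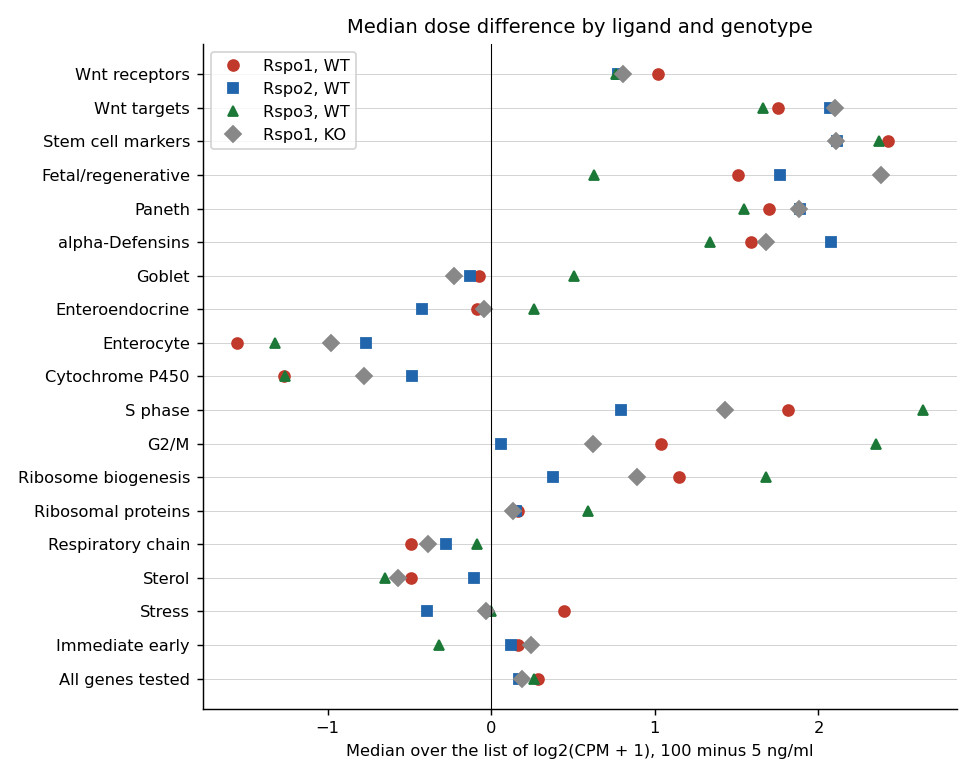
The x axis gives the median difference (log2(CPM + 1), 100 minus 5 ng/ml) over each list on the y axis, with Rspo1, Rspo2 and Rspo3 in the 3 WT cultures and with Rspo1 in the 2 KO cultures. For the S phase and G2/M lists the Rspo1 median lies between those of Rspo2 and Rspo3, while the stem cell medians lie within 2.11 and 2.43.

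Rspo1 was given at the same doses to 2 KO cultures, KO7 and KO2. Their counts on Lgr5 do not check the label, as they were 57.9 and 91.7 CPM at 100 ng/ml and 1.1 and 7.4 CPM at 5 ng/ml, and the allele is a cassette inserted into the gene. All 4 KO libraries expressed the Y-linked gene Ddx3y, at 56.2 to 62.4 CPM, against at most 0.45 CPM in the WT libraries, so genotype and sex cannot be told apart. The KO2 library at 100 ng/ml stood apart in Xist, with 213 CPM against 0.6 CPM at the other dose of the culture. The dose effect in KO cultures had medians of 1.43 for replication, 2.11 for stem cell markers, 2.10 for Wnt targets and -0.98 for enterocyte genes. No gene of 18234 (0%) was called on the difference between the genotypes' dose effects (limma, FDR 0.05), and 1453 had an unadjusted p under 0.05. With KO2 left out 442 genes were called and with KO7 left out 469, where the lone KO pair is assumed to vary like the WT pairs. For Lgr5 the contrast was -0.36 ± 0.36, adjusted p = 0.8, for Axin2 -0.26 ± 0.35, adjusted p = 0.85, and for Olfm4 -1.15 ± 0.34, adjusted p = 0.5. Trib3, which rose in WT, had a dose difference of -0.07 in KO, a contrast of -1.33 ± 0.19, adjusted p = 0.14. In the other direction, 3 of the largest falls in WT had contrasts above 0 that did not pass either. They were 3.26 ± 0.50 for Reg3b (adjusted p = 0.14), 2.10 ± 0.28 for Slc15a1 (adjusted p = 0.12) and 2.01 ± 0.32 for Dpep1 (adjusted p = 0.14). These 3 were picked after their values were seen. The median contrast of the enterocyte list was 0.60.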

How the data were processed

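Per the labels, RNA of the organoids was depleted of ribosomal RNA and sequenced, and the authors trimmed reads with Trimmomatic 0.36, aligned them to GRCm38 with STAR 2.5.3a and counted genes with HTSeq 0.9.1. The authors deposited CPM values (counts scaled to a fixed total) for 52636 genes, rounded to 0.05, so 1 read was worth 0.0325 to 0.0542 CPM and a test on counts was not used. Genes reaching 1 CPM in 3 or more of the 6 libraries (17114) were tested on log2(CPM + 1) with limma 3.58.1 (R 4.3.3), culture as a block and a trend, two-sided, at a Benjamini-Hochberg FDR of 0.05, with 2 residual degrees of freedom. Contrasts with Rspo2 and Rspo3 used 18 WT libraries, and that with KO used 10. Each pair is 1 embryo's culture, and deviations of the paired libraries correlated at 0.78, 0.62 and 0.67. On simulated data the dose fit recovered 97% of log2 changes of 1, and the KO contrast 36%. The simulated spread was not corrected for the degrees of freedom used, so the 97% is too favourable. For the KO contrast that spread also took in differences in level between the genotypes. Neither share thus measures the power of these tests. TMM, another pseudocount, other filters, no block, no trend and leaving out each culture were tried. TMM was computed as an unweighted trimmed mean.

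Genes were named as anchors of lists, as Wnt pathway members, as list extremes, as the 10 largest rises and falls with a mean of at least 5 CPM, or as the 3 largest contrasts in each direction, and any others after their values were seen. The 10 largest rises and falls were taken from called genes that moved the same way in all 3 cultures, without Gm and Rik symbols. A few genes that these rules name are not reported here. The genes, lists and motifs were chosen with earlier results of these data known. Promoters and coordinates came from RefSeq and GENCODE annotation of GRCm38. Figures were drawn with matplotlib 3.10.9.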

Additional observations from a re-analysis of the deposited data

Results flagged for a closer look

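The effect of the Rspo1 dose differed from that of the Rspo2 dose for 3058 genes and from that of the Rspo3 dose for 927 genes, by a test of the difference itself in the same 3 cultures. Among genes with a mean of at least 5 CPM, the 3 largest differences in each direction were singled out. Against Rspo2 they were 4.09 for Fam129a, 3.31 for Cldn8 and 3.24 for Stc2, and -4.07 for Reg3b, -3.94 for Slc5a4b and -3.19 for Sp5. Against Rspo3 they were 2.47 for Cldn4, 2.36 for 4930539E08Rik and 2.21 for Grhl3, and -2.07 for Olfm4, -1.93 for Hist1h3b and -1.89 for Hist1h1b. The counts against both ligands were smaller without WT10, at 622 and 34.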

How the results depend on the processing

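The effect of the Rspo1 dose in WT organoids kept its direction and its side of the threshold in 1722 values that alternatives gave for 190 named genes, while 89 values, of 34 genes, no longer passed, 21 passed only then and 21, of 17 genes, changed sign. The 11996 calls (8846 rises and 3150 falls) became 7689 (5167 rises) with a mean of at least 10 CPM, which tests fewer genes, and 6569 (5018 and 1551) with a fold above 1.5 in addition. With TMM 5152 rose and 5732 fell. Without the block by culture, that is without pairing, 7841 genes were called, of which 1916 fell. Leaving out a culture gave 10824 to 11643 calls. For the contrast with Rspo2, TMM gave 1262 genes above 0 and 1235 below 0, no block gave 1381 (1074 and 307), and leaving out a culture gave 622 to 1470 (443 to 1069 and 179 to 566). For Rspo3, no filter on low values, which tests more genes, gave 504 (222 and 282), a mean of at least 10 CPM 269 above 0, no block 229 (62 and 167) and the fit of only the 12 libraries with Rspo1 or Rspo3 286 above 0, and leaving out a culture gave 34 to 638 (6 to 319 and 28 to 319). For KO minus WT, leaving out a culture gave 0 to 469 calls (0 to 302 and 0 to 308). The cause of these changes was otherwise not tested.

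With TMM the sign turned for Axin1 (-0.086), Bop1 (-0.14), Krt15 (-0.087), Lct (-0.17), Lgr4 (-0.14), Mgam (-0.28), Tcf7l2 (-0.32) and Wnt9b (-0.054). Leaving out a culture gave differences of -0.17 to 0.17 for Agr2, -0.10 to 0.055 for Apc, -0.075 to 0.52 for Dclk1, -0.25 to 0.014 for Dll1, -0.18 to 0.20 for Dpp4, -0.23 to 0.0078 for Fos, -0.24 to 0.0010 for Isl1, -0.20 to 0.69 for Lct, -0.072 to 0.20 for Mgam, -0.50 to 0.11 for Nid1, -0.23 to 0.050 for Spink4 and -0.073 to 0.11 for Tcf7l2. Among list medians, TMM gave -0.056 for the Wnt cascade, -0.053 for BMP genes, -0.28 for p53 and cell death, -0.19 for immediate early genes, -0.19 for ribosomal proteins and -0.15 for defence genes, a mean of at least 10 CPM gave -0.078 for stress genes, -0.62 for defence genes and -0.53 for blood and vessel genes, and leaving out a culture gave -0.13 to 0.24 for defence genes, -0.23 to 0.047 for enteroendocrine genes, -0.20 to 0.11 for goblet cell genes, -0.26 to 0.016 for fibroblast and muscle genes and -0.010 to 0.15 for p53 and cell death. All 119 differences between ligands that were recomputed for named genes kept their direction, and 17 no longer passed. At the depth of these libraries 1 read was 0.0325 to 0.0542 CPM, close to the 0.05 to which the values were rounded, so that genes under 1 CPM are read coarsely.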

Other observations

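By the size of the change in mean CPM, abundant genes lead, and some are on the lists above. Fcgbp of the goblet list and Apob of the enterocyte list had mean differences of -1984 and -1766 CPM. Other large falls were those of Dmbt1, a mucosal defence protein (a mean difference of -1468 CPM), Adh1, alcohol dehydrogenase (-1402 CPM), Reg1, a regenerating family lectin (-1024 CPM), and Gstm1, a glutathione transferase (-942 CPM). Among the largest gains were Xist (1447 CPM), Slc12a2 (1177 CPM) and Clca3b (745 CPM). Genes annotated as Gm26917, CT010467.1 and AY036118 hold copies of ribosomal RNA and differed in mean CPM by 5234, -1097 and -1055. Of these 3 only AY036118 passed the test, and its values overlapped between doses. The other genes named in this paragraph passed it. These genes were picked after their values were seen.

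Among protein-coding genes the median difference between the doses was 0.51, 0.40, 0.20 and 0.014 in 4 equal groups of 3168 genes from the lowest to the highest mean CPM. In 4 such groups from the shortest to the longest exon length it was 0.11, 0.25, 0.31 and 0.37. LincRNA genes, 445 of them tested, had a median of 0.34, beside 0.27 for the 12672 protein-coding genes.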
